A study of Mus musculus with 2 samples.

Results

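The killer cell lectin-like receptors described here are 7 genes of the 27998 in the count matrices: Klrc1, Klrc2, Klrd1, Klrk1, Klre1, Klrg1 and Klrb1c. They were taken by name as a receptor family, not by their values, and were measured in CD8 T cells, CD4 T cells without Foxp3, regulatory T cells (Treg) and natural killer (NK) cells, with the wildtype library beside the knockout library. The libraries hold single-cell RNA from immune cells sorted out of B16Ova tumors, a mouse melanoma line that carries ovalbumin, grown under the flank skin of female mice for 13 days after injection of 250000 cells. The wildtype (WT) mice were E8i-cre- and Tcf7 FL/FL, and the knockout (KO) mice were E8i-cre+ and Tcf7 FL/FL, so that both groups carry the floxed alleles and differ in the Cre. E8i is an enhancer of the Cd8a locus that is active in mature CD8 T cells, and Tcf7 encodes TCF1, a DNA-binding protein that naive and memory T cells depend on. The sources used here give no age. Each group is 1 library that pools 3 tumors, with no label that ties a cell to a tumor, so WT and KO could not be tested against each other and every interval below covers counting error only.

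These receptors are C-type lectin-like proteins of NK cells and of activated or memory CD8 T cells. CD94, the product of Klrd1, pairs with NKG2A (Klrc1) to form an inhibitory receptor or with NKG2C (Klrc2) to form an activating one, and both pairs read the non-classical MHC molecule encoded by H2-T23. NKG2D (Klrk1) is an activating receptor for stress-induced ligands of the Raet1, H60 and Ulbp1 families that signals through the adaptor DAP10 (Hcst). Klre1 encodes a receptor chain that pairs with the products of Klri1 or Klri2. Klrg1 encodes an inhibitory receptor for cadherins found on terminal effector T cells and on a subset of regulatory T cells. Klrb1c encodes the antigen NK1.1, by which NK cells of some mouse strains are stained.

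All members lie on mouse chromosome 6 (GRCm38, GENCODE M21 annotation). Klrg1 is at 122270596 to 122282882 on the minus strand and Klrb1c at 128778485 to 128789215 on the minus strand. The other 5 lie within 101 kilobases: Klre1 at 129577905 to 129585827 (plus), Klrd1 at 129591782 to 129598775 (plus), Klrk1 at 129610323 to 129623864 (minus), Klrc2 at 129647496 to 129660689 (minus) and Klrc1 at 129666015 to 129678973 (minus). Klrc1 and Klrc2 are near copies, which bears on how far their counts can be told apart. Their longest identical coding run is 124 bases, coding bases 286 to 409 of 681 in Klrc1 and 268 to 391 of 663 in Klrc2. It covers parts of 2 exons in each gene (chr6:129677203-129678299 and chr6:129658722-129659981, minus strand, introns included in these ranges), and is shown because a read inside it fits both genes.

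Klrc1 and Klrc2, shared coding run: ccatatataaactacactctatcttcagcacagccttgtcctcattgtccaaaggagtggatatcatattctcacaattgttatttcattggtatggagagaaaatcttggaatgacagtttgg

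Of the distinct runs of 50 bases in the annotated Klrc1 transcripts, 38.6% also occur in another gene, and 43.5% of those in the last 500 bases do. For Klrc2 the share was 16.3%, and for Klrb1c it was 17%, mostly with the overlapping same-strand gene model Gm44511, so these 3 counts are uncertain to that extent. Klrd1, Klrk1 and Klrg1 shared 0 such runs with any other gene, and Klre1 shared 0.308%. The sources used here do not say how reads that fit more than 1 gene were counted.

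RefSeq promoter windows (GRCm38.p6) were matched for 5 of the 7 members. The 250 bases before the start are printed for Klrc1 and Klrk1, since UMIs of these genes were found together in CD8 T cells. The window of Klrc1 is chr6:129678974-129679223 and that of Klrk1 is chr6:129623865-129624114, both 5′ to 3′ on the minus strand.

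Klrc1: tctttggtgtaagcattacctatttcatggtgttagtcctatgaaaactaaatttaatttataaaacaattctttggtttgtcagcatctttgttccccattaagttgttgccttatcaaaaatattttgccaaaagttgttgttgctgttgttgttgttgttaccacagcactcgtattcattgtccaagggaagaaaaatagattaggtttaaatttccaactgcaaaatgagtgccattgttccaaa

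Klrk1: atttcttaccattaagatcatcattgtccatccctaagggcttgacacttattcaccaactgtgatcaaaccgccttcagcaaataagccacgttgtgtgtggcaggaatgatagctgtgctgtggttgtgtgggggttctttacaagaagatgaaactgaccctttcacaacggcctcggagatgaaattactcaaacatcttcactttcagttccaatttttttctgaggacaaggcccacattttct

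The TCF and LEF core letters CTTTGA were searched on both strands (TCAAAG on the other) and any match would stand in capitals. Neither window holds a match, nor do the windows of Klrc2, Klre1 and Klrb1c, while 13.8% of all 32851 RefSeq windows of that length do. This says only that those letters are not in these windows.

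After filters 988 WT and 1086 KO cells were kept, with 9106370 and 11587087 unique molecular identifiers (UMIs, each standing for 1 captured transcript). Gates on marker transcripts gave 172 WT and 183 KO CD8 T cells, 114 and 153 CD4 T cells without Foxp3, 87 and 63 Treg cells, and 3 and 12 NK cells. Median depths were 4772.5 and 6366 UMIs in CD8 T cells, 3568 and 4183 in CD4 T cells, and 4702 and 5624 in Treg cells. Treg cells carried Ctla4 in 85 of 87 WT and 55 of 63 KO cells, and NK cells carried Tyrobp in 3 of 3 and 12 of 12. Among other check genes of NK cells, Eomes was found in 0 of 3 WT and 4 of 12 KO cells. Fcer1g was found in 3 and 12 of them, Gzma in 0 and 10, and Prf1 in 1 and 8. The NK gate thus rests on Ncr1, and the identity of the 3 WT cells was not settled. Of the barcodes, 1 occurred in both libraries. Tcf7, the targeted gene, stood at 163 CPM (UMIs scaled to a class total of 1000000) in WT CD8 T cells and 58.1 in KO CD8 T cells, a KO to WT ratio of 0.357 (95% interval 0.281 to 0.451). Its CD8 values by cycling state are given below. Tcf7 CPM was also lower in KO CD4 T cells, at 104 against 226. The share of CD4 T cells with Tcf7 was 46.5% in WT and 43.8% in KO, a difference of -2.70 points (-15.2 to 9.80). In 1 draw of 2000 UMIs per cell it differed by -8.87 points (-20.9 to 3.00). At 1000 UMIs the difference was -10.9 points (-20.7 to -1.53). Which exons the Cre removes is not stated in the sources used here, so that UMIs left in KO cells may come from outside the deleted part.

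**Figure D1:**
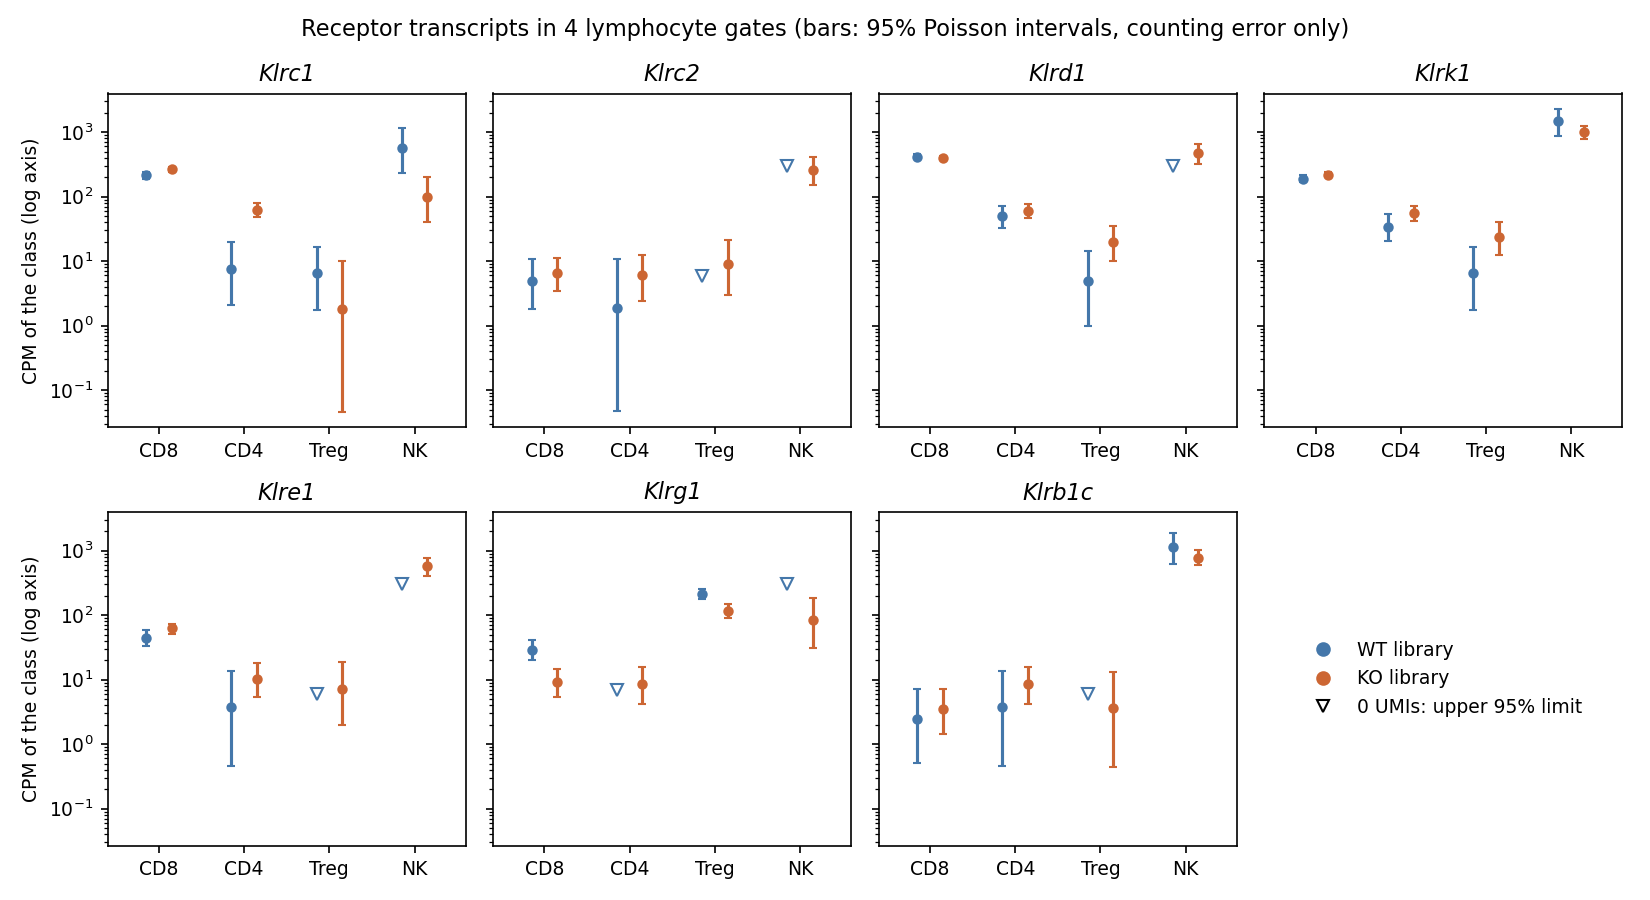
CPM of each receptor in the 4 gates on a log axis, WT in blue and KO in orange, with exact 95% Poisson intervals and open triangles for the upper limit where 0 UMIs were found. Levels of different genes are not comparable, since CPM is not scaled by length. Klrc1 differs between libraries in CD4 T cells (7.61 and 62.3 CPM), and Klrg1 differs in CD8 T cells (29.1 and 9.09 CPM).

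In CD8 T cells both chains of the inhibitory pair were found in both libraries. Klrd1 had 498 UMIs in WT and 798 in KO, or 414 and 403 CPM, a ratio of 0.974 (0.869 to 1.09). Klrc1 had 259 and 522 UMIs, or 215 and 264 CPM, a ratio of 1.22 (1.05 to 1.43). The activating partner Klrc2 was rare, with 6 UMIs in WT and 13 in KO, or 4.99 and 6.57 CPM. Klrc2 thus made up 2.26% of the UMIs of Klrc1 and Klrc2 together in WT (exact binomial 95% interval 0.835 to 4.86) and 2.43% in KO (1.3 to 4.12). These intervals overlap, so a different balance of the inhibitory and activating chains was not detectable, as far as reads could be assigned.

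The activating receptor Klrk1 had 228 UMIs in WT CD8 T cells and 433 in KO, or 190 and 219 CPM, a ratio of 1.15 (0.981 to 1.36). Klre1 had 54 and 123 UMIs, or 44.9 and 62.1 CPM, a ratio of 1.38 (0.997 to 1.94). Its mean over cells gave a ratio of 1.02, and thinning each cell to 2000 UMIs left 11 and 12 UMIs and a ratio of 0.975 (0.394 to 2.44), so no direction is given for Klre1. Klrg1 went the other way, with 35 UMIs in 15 of 172 WT cells and 18 UMIs in 12 of 183 KO cells, or 29.1 and 9.09 CPM, a ratio of 0.312 (0.167 to 0.567). After thinning Klrg1 had 12 and 5 UMIs and a ratio of 0.372 (0.103 to 1.14), an interval that holds 1. Klrb1c had 3 and 7 UMIs. The 7 members summed to 900.3 CPM in WT and 967 in KO, a ratio of 1.07 (0.996 to 1.16), an interval that holds 1.

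Members with at least 30 UMIs over both libraries were called measured, and a ratio of at least 1.5-fold either way was called higher or lower. In CD8 T cells 5 of the 7 members were measured, of which 0 were higher in KO and 1, Klrg1, was lower. Under the same rule 9.98% of 7106 genes were higher and 9.36% were lower. The median log2 ratio of the measured members was 0.21, beside 0.04 over all measured genes.

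Cells of the CD8 gate differed in state, with 23 cycling cells (at least 2 proliferation genes such as Mki67 and Top2a detected) in WT and 57 in KO, and 149 and 126 cells not cycling. Cycling cells were deeper, with a median of 19815 UMIs in WT and 20379 in KO, beside 4352 and 4720 in the rest. Klrd1 was lower in cycling cells of both libraries, at 257 CPM in WT and 361 in KO, than in cells not cycling, at 502 and 475 CPM. Klrk1 lay close in both sets, at 206 and 221 CPM in cycling cells and at 180 and 215 CPM in the rest.

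In cells not cycling Klrc1 stood at 207 CPM in WT and 285 in KO, a ratio of 1.37 (1.11 to 1.70), and in cycling cells at 229 and 251 CPM, a ratio of 1.10 (0.871 to 1.39). The Klrd1 ratio was 1.40 (1.14 to 1.75) in cycling cells and 0.947 (0.817 to 1.10) in the rest, where the interval held 1. The difference between these states was not tested. Klrg1 was lower in KO in both, at 20.8 and 5.58 CPM in cycling cells and at 33.7 and 15.2 CPM in the rest, a ratio of 0.450 (0.201 to 0.942) in the latter. Klre1 stood at 37.1 and 64.6 CPM in cycling cells and at 49.3 and 57.9 CPM in the rest. Beside these receptors, in cells not cycling, Gzmb, which encodes a cytotoxic granule protease, stood at 443 and 1335 CPM. Prf1, which encodes perforin, stood there at 135 and 371 CPM. Tcf7 stood at 232 and 136 CPM in cells not cycling, a ratio of 0.588 (0.455 to 0.756). In cycling cells Tcf7 stood at 39.4 and 12.8 CPM, a ratio of 0.324 (0.153 to 0.682). The Tcf7 ratio of the whole gate thus also carries its different number of cycling cells.

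**Figure D2:**
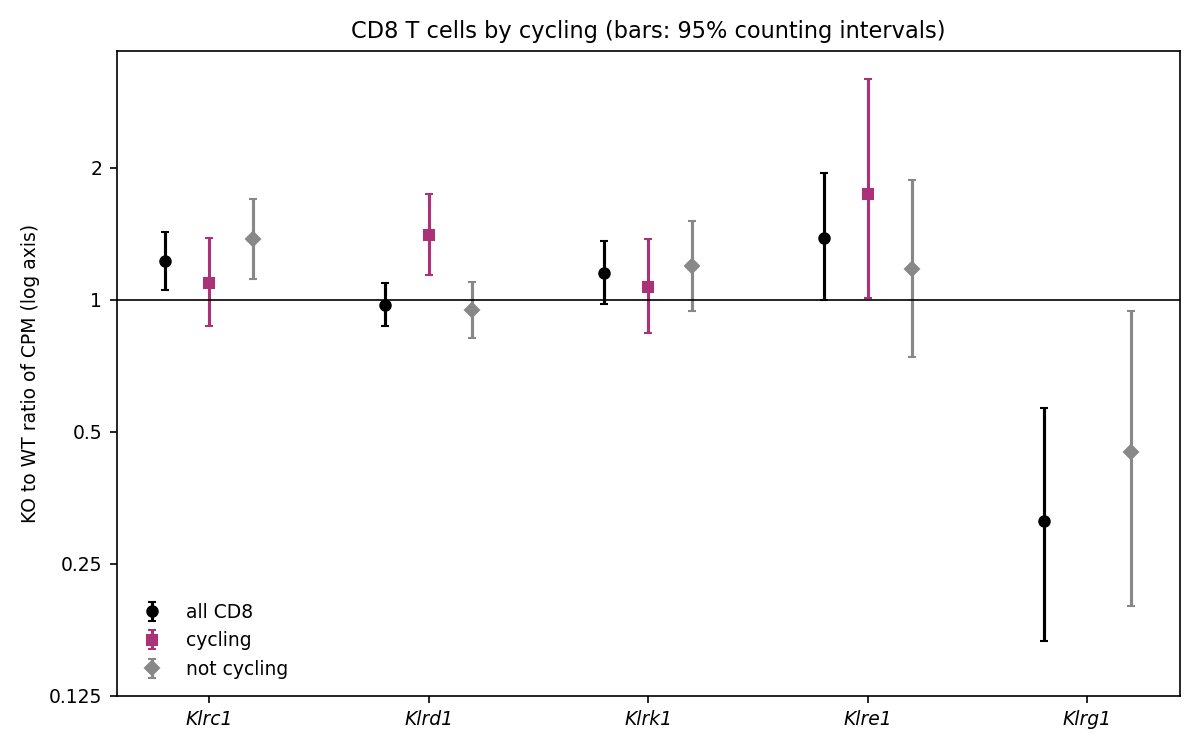
KO to WT ratio of CPM for 5 receptors in all CD8 T cells, in cycling cells and in cells not cycling, on a log axis with 95% counting intervals; values with fewer than 30 UMIs over both libraries are left out. Klrd1 lies above 1 in cycling cells (1.40, from 23 WT and 57 KO cells) and near 1 in cells not cycling (0.947), and Klrg1 lies below 1 in both sets drawn.

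The share of CD8 T cells with a UMI was compared after each cell was thinned to 2000 UMIs, which left 160 WT and 179 KO cells. Klrd1 was found in 76 cells of the WT library (47.5%) and 83 of the KO library (46.4%), which differ by -1.13 percentage points (-12.1 to 9.85). Klrc1 was found in 36 (22.5%) and 50 cells (27.9%), a difference of 5.43 points (-4.27 to 14.9). For Klrk1 the cells numbered 33 (20.6%) and 50 (27.9%), a difference of 7.31 points (-2.28 to 16.7). These values rest on 1 random draw. Averaged over all draws the differences were 1.42 points for Klrd1, the opposite sign, 2.67 for Klrc1 and 3.39 for Klrk1. Without thinning these shares were 67.4% and 74.3% for Klrd1, 37.2% and 46.4% for Klrc1, and 37.8% and 50.3% for Klrk1. At equal depth Klre1 was found in 4.38% and 6.15%, Klrg1 in 5.0% and 2.23%, Klrc2 in 0 of 160 and 2.79%, and Klrb1c in 0 of 160 and 1.12%. A count of 0 in 160 cells allows a share of up to 1.88% (3 counts of the total), with a Clopper-Pearson upper limit of 2.28%. Both limit cells with a UMI at 2000 UMIs and not cells that express the gene, and without thinning 5 of 172 WT cells (2.91%) held Klrc2. All 7 intervals of the difference held 0, so a difference in the share of positive cells was not detectable at this depth.

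Macrophages and monocytes, taken beforehand as cells that lack these receptors, had median depths of 5713 and 8570 UMIs and were meant as a measure of background. At 2000 UMIs Klrc1 was found in 0 of 51 WT and 0 of 120 KO cells and Klrd1 in 0 and 3 cells (2.5%). Klrk1 was found in 5 (9.80%) and 9 cells (7.5%). Without thinning it was found in 11 of 63 WT and 40 of 131 KO cells, and Klrc1 in 0 of either. These cells are thus not shown to lack Klrk1 and give no background for its CD8 share. Whether their Klrk1 is their own RNA was not tested. Dendritic cells at the same depth held Klrk1 in 29.8% and 29.0% of cells and Klrd1 in 19.8% and 14.7%.

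**Figure D3:**
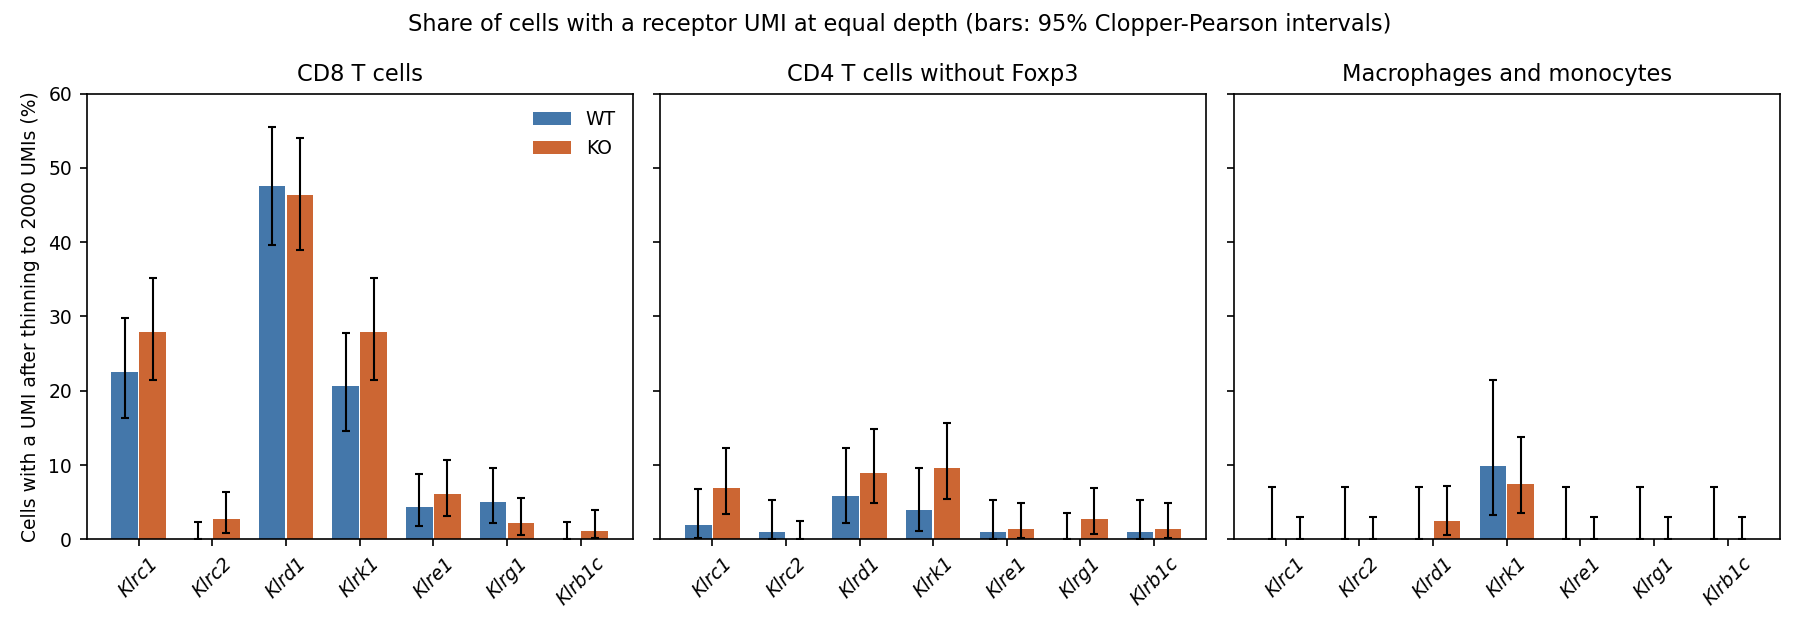
Percentage of cells with a UMI of each receptor after thinning to 2000 UMIs, for CD8 T cells, CD4 T cells without Foxp3, and macrophages and monocytes, with Clopper-Pearson 95% intervals. In CD8 T cells Klrd1 was found in 47.5% and 46.4% and the intervals of WT and KO overlap for all 7 genes.

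At least 1 of the 7 receptors was found in 57.5% of thinned WT CD8 T cells and 65.4% of KO cells, and at least 2 were found in 27.5% and 31.3%. Klrc1 was found in 18 of 33 WT cells with Klrk1 (54.5%) and in 18 of 127 without it (14.2%), a difference of 40.4 points (20.8 to 58.6). In KO it was found in 24 of 50 (48.0%) and 26 of 129 (20.2%), a difference of 27.8 points (11.4 to 43.8). Both libraries thus showed the joint detection of the inhibitory chain Klrc1 with the activating receptor Klrk1. Klrc1 and its partner chain Klrd1 were found together in WT, at 35.5% of Klrd1-positive and 10.7% of Klrd1-negative cells, a difference of 24.8 points (11.1 to 37.9). The corresponding KO values were 34.9% and 21.9%, a difference of 13.1 points (-0.901 to 26.8). Klrd1 was found in 7 of 8 WT cells with Klrg1 (87.5%) and 69 of 152 without it (45.4%), a difference of 42.1 points (1.11 to 56.7). In KO it was found in 3 of 4 and 80 of 175, a difference of 29.3 points (-26.8 to 54.8). Klrk1 had no shared direction with Klrg1. It was found in 1 of 8 WT cells with Klrg1 (12.5%) and 32 of 152 without it (21.1%), and in 3 of 4 and 47 of 175 KO cells. Cells of 1 library are not replicates, and cells with no UMI of Klrd1 at this depth may still hold its RNA.

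Klrc1 and Tcf7 were seldom found in the same KO cells. Klrc1 had a UMI in 2 of 36 KO cells with Tcf7 (5.56%) and in 48 of 143 without it (33.6%), a difference of -28.0 points (-37.7 to -12.8). In WT the shares were 8 of 52 (15.4%) and 28 of 108 (25.9%), a difference of -10.5 points (-23.2 to 4.44). In KO cells with no UMI of Ccr7 or Lef1, genes of resting T cells, a limit chosen after the values were seen, the shares were 2 of 9 (22.2%) and 33 of 82 (40.2%), and the interval of the difference (-40.5 to 21.2) held 0. Klrk1 was also less frequent in KO cells with Tcf7, at 4 of 36 (11.1%) against 46 of 143 (32.2%). The difference was -21.1 points (-32.6 to -4.30). In WT the Klrk1 shares were 15.4% and 23.1%, and the interval of the difference (-20.2 to 7.02) held 0. The limit on Ccr7 and Lef1 was not applied to Klrk1. Klrd1 showed no such split, at 46.2% of WT cells with Tcf7 and 48.1% without, and at 44.4% and 46.9% in KO. Klrc1 was found more often in KO cells with Cxcr6, a chemokine receptor of tissue-resident and effector T cells, at 37.4% against 16.2% (difference 21.1 points, 7.36 to 33.7). In KO cells with no UMI of Ccr7 or Lef1 the shares were 48.2% and 22.9% (3.39 to 43.9). The WT shares were 31.4% and 18.3% (-1.93 to 29.0), and 33.3% and 20.5% (-8.07 to 33.5) under that limit. With Gzmk, a granule protease gene, Klrc1 was found in 37.8% against 17.9% of WT cells (2.65 to 38.5). In KO these shares were 35.0% and 25.9% (-7.40 to 27.2). Klrg1 was found in 0 of 40 WT and 0 of 66 KO cells with Pdcd1, which encodes the checkpoint receptor PD-1, and in 8 of 120 and 4 of 113 cells without it. The intervals of these differences held 0 in WT (-12.7 to 2.91) and KO (-8.82 to 2.47).

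**Figure D4:**
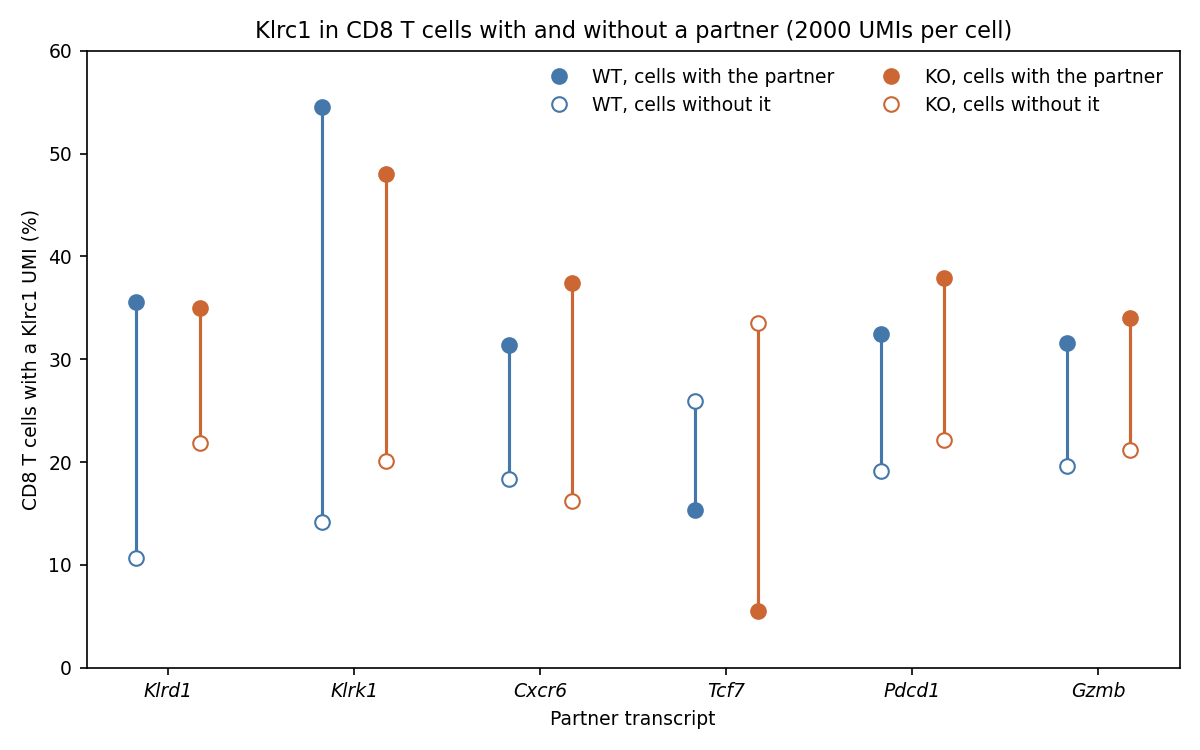
Percentage of CD8 T cells with a Klrc1 UMI, at 2000 UMIs per cell, among cells with (filled) and without (open) a UMI of each partner drawn. Gzmk is not drawn. In both libraries the filled points lie above the open ones for Klrk1, Klrd1, Cxcr6, Pdcd1 and Gzmb, and below them for Tcf7 (5.56% against 33.6% in KO).

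CD4 T cells without Foxp3 carried the largest difference in Klrc1. It had 4 UMIs in 3 of 114 WT cells and 72 UMIs in 20 of 153 KO cells, or 7.61 and 62.3 CPM, a ratio of 8.18 (3.06 to 30.8). The KO library was the higher one, with 3 cells holding 44.4% of its Klrc1 UMIs. At equal depth 2 of 103 WT cells (1.94%) and 10 of 145 KO cells (6.90%) held Klrc1, and the shares differed by 4.95 points (-1.09 to 10.6). Klrd1 had 26 and 70 UMIs, or 49.5 and 60.6 CPM, a ratio of 1.22 (0.770 to 2.0). Klrk1 had 18 and 64 UMIs, or 34.3 and 55.4 CPM, a ratio of 1.62 (0.946 to 2.90). Klrc2 had 1 and 7 UMIs, Klre1 had 2 and 12, Klrg1 had 0 and 10, and Klrb1c had 2 and 10. The members summed to 101 CPM in WT and 212 in KO, a ratio of 2.10 (1.56 to 2.88), which was 1.36 (1.10 to 1.68) without the limit on MHC class II UMIs that keeps out cells with antigen-presenting transcripts.

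In this gate 3 of the 7 members were measured, of which 2 (Klrc1 and Klrk1) were higher in KO and 0 were lower. Of 5773 genes 14.7% were higher and 11.2% were lower. The median log2 ratio was 0.69 for the measured members and 0.01 over all measured genes. Klrc1 and Klrk1 reached 30 UMIs through the KO library, where they were the higher, so nothing is read from these counts and medians.

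Of the 20 KO cells with Klrc1, 15 had a UMI of Pdcd1, 13 of Cxcr6, 11 of Klrd1 and 8 of Tcf7, and 5 were cycling. Tyrobp, an adaptor of NK and myeloid cells, was found in 1 of them and the NK receptor gene Ncr1 in 1. Transcripts of other cells moved with this gate: a list of 8 macrophage genes stood at 594 CPM in WT and 1218 in KO, with 0 of the 8 absent in either library, and Tyrobp at 105 and 238 CPM. Without cells that held at least 2 of those macrophage genes the Klrc1 ratio was 8.75 (3.27 to 33.0), and without cells that held Tyrobp it was 9.01 (3.36 to 34). Thinning to 2000 UMIs left 3 and 19 UMIs and a ratio of 4.50 (1.32 to 23.7), and without the top cell of each library the ratio was 13.5 (3.58 to 114). The ratio of Klrk1 without Tyrobp-positive cells was 1.28 (0.723 to 2.35), so Klrk1 would no longer be called higher. Tcf7 CPM was lower in this KO gate as well, with the shares of cells given above, and its part in the Klrc1 difference was not tested.

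Klrg1 was the main member in Treg cells. It had 132 UMIs in 25 of 87 WT cells (28.7%) and 65 UMIs in 17 of 63 KO cells (27.0%), or 213 and 118 CPM, a ratio of 0.552 (0.404 to 0.749). At 2000 UMIs per cell the shares were 19.8% and 25.9% (difference 6.11 points, -8.70 to 21.5), and at 1000 UMIs 18.8% and 6.45% (-12.4 points, -23.3 to -0.359), each in 1 draw. Averaged over all draws they were 18.9% and 19.4% at 2000 UMIs and 13.6% and 12.6% at 1000 UMIs. In WT 3 cycling cells held 34, 24 and 18 of the Klrg1 UMIs, 57.6% of the total. Cycling Treg cells numbered 12 in WT and 18 in KO, with 402 CPM (320 to 499) and 63.9 CPM (39.6 to 97.7). In the 75 and 45 Treg cells that were not cycling Klrg1 stood at 120 CPM (89.3 to 159) and 196 CPM (143 to 264), a ratio of 1.63 (1.06 to 2.50), which is the opposite direction. The mean of each cell's CPM gave a ratio of 1.05, so no direction for Klrg1 in Treg cells is given here.

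The other members were sparse in Treg cells, at 0 to 4 UMIs in WT and 1 to 13 in KO. A single KO cell held all of the Klrc2 (5), Klre1 (4) and Klrb1c (2) UMIs of its class. The members summed to 231 CPM in WT and 183 in KO, a ratio of 0.792 (0.608 to 1.03). The direction of the sum turned without the limit on MHC class II UMIs (1.29, 1.08 to 1.53), without cycling cells (1.48, 0.994 to 2.21) and after thinning (1.31, 0.777 to 2.21). Klrg1 was the 1 measured member of 7 and passed the fold for lower on summed UMIs, beside 8.7% of 4760 genes higher and 10.5% lower, but the reversals given above leave it without a direction. The macrophage list stood at 392 CPM in WT and 1835 in KO in this gate, again with 0 of 8 genes absent, and without cells that held at least 2 of its genes the Klrg1 ratio was 0.623 (0.455 to 0.847).

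NK cells were few, 3 in WT and 12 in KO, so the values are given per cell. Klrk1 and Klrb1c were found in 3 of 3 WT and 12 of 12 KO cells, with 3 to 11 and 2 to 9 UMIs per cell for Klrk1 and 3 to 7 and 1 to 7 for Klrb1c. The antigen encoded by Klrb1c, NK1.1, was one of the stains of the sort, so its presence is no finding. Klrd1, Klre1, Klrc2 and Klrg1 had 0 UMIs in the WT cells and 33, 40, 18 and 6 UMIs in the KO cells. The lower 95% limit of the KO to WT ratio was 1.48 for Klrd1 and 1.81 for Klre1. These limits pool the UMIs of a gate and do not cover the spread between cells. By cell, without thinning, Klrd1 was found in 0 of 3 and 8 of 12, a difference of 66.7 points (-10.9 to 90.1). Klre1 was found in 0 of 3 and 10 of 12, a difference of 83.3 points (5.78 to 97.9). After thinning to 2000 UMIs the Klre1 interval held 0 (-10.9 to 90.1). No KO level is read from these values, since the KO cells were not alike. Klrc1 had 7 UMIs in 2 WT cells and 7 UMIs in 3 KO cells.

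The KO cells split by Gzma, which encodes a granule protease of cytotoxic cells. Of the 10 with Gzma, 10 held Klre1, 8 held Klrd1, 7 held Klrc2 and 1 held Klrc1. Both KO cells without Gzma held Klrc1 and neither held Klrd1, Klre1 or Klrc2. The 3 WT cells also lacked Gzma, and 2 of them held Klrc1 and 2 held Il7r, the IL-7 receptor of innate and memory lymphocytes. Klrc2 was 72% of the UMIs of Klrc1 and Klrc2 in KO NK cells (50.6 to 87.9), against 2.43% in KO CD8 T cells given above. Lyz2, a myeloid gene, was found in 2 KO cells at 101 and 291 UMIs and in 1 WT cell at 1 UMI, and of the 8 macrophage genes 7 were absent in WT and 3 in KO. With the wider gate (5 WT and 15 KO cells), Gzma was found in 2 WT cells, which held 5 UMIs of Klrd1 and 4 of Klre1.

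By the counting rule 4 members were measured in NK cells, of which 2 (Klrd1 and Klre1) were higher in KO and 0 lower, beside 33.3% of 399 genes higher and 16.8% lower. Klrd1 and Klre1 reached 30 UMIs through the KO library alone, so nothing is read from this count. With no filter, or at 50 CPM in 1 library, 1 member was lower, Klrc1, with a ratio of 0.175 (0.0524 to 0.584). The members summed to 3171 CPM in WT and 3257 in KO, a ratio of 1.03 (0.729 to 1.48). After thinning this ratio was 1.74 (1.04 to 3.08) and with the wider gate 0.692 (0.531 to 0.911), so no direction is given for the sum. With 3 WT cells, which types of NK cell were sampled and any effect of the genotype cannot be told apart.

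**Figure D5:**
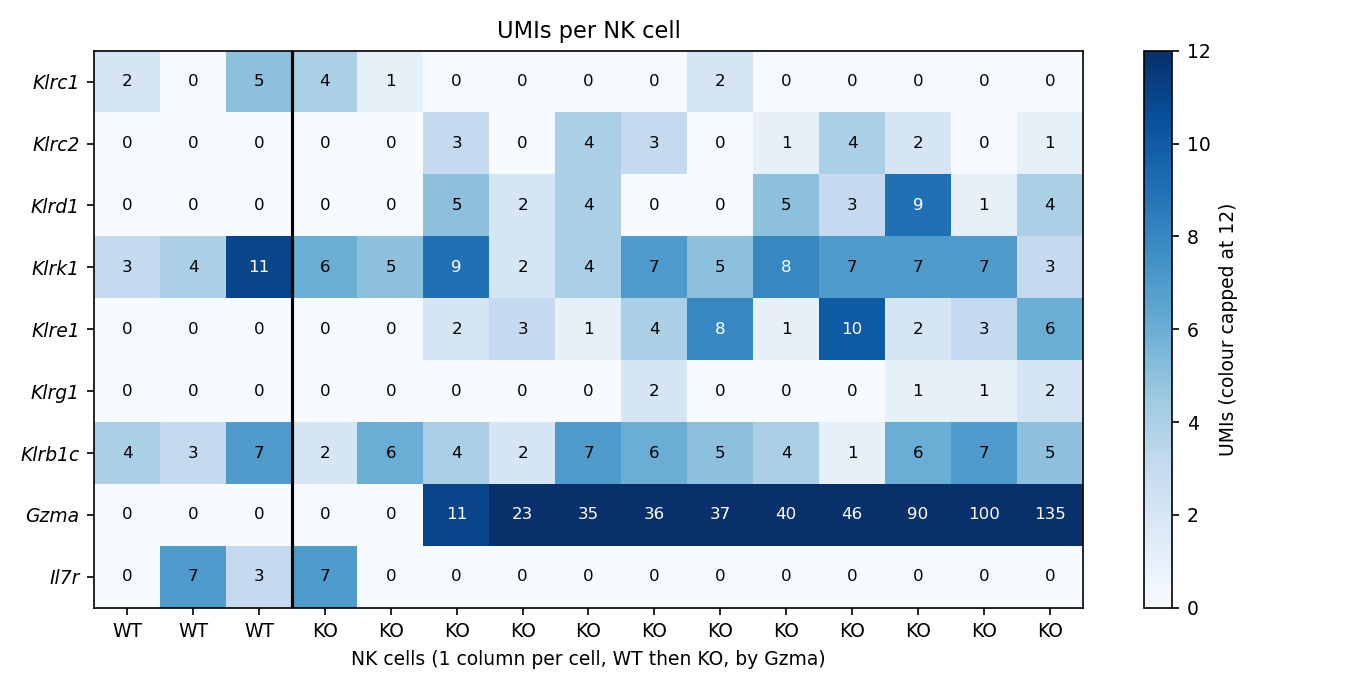
UMIs of the 7 receptors, of Gzma and of Il7r in each NK cell, 1 column per cell, with colour capped at 12 UMIs. The 10 KO cells with Gzma hold Klre1, and the 3 WT and 2 KO cells without Gzma hold neither Klrd1 nor Klre1.

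Among partners of the receptors, the adaptor gene Hcst, which carries the NKG2D signal, was lower in the KO library in all 4 gates. It stood at 688 CPM in WT CD8 T cells and 378 in KO, a ratio of 0.550 (0.497 to 0.607). In CD4 T cells it stood at 744 and 389 CPM (0.522, 0.455 to 0.599), in Treg cells at 479 and 308 CPM (0.642, 0.529 to 0.778), and in the few NK cells at 1301 and 683 CPM (0.525, 0.293 to 0.990). In T cells with neither co-receptor transcript it stood at 616 and 554 CPM (0.901, 0.743 to 1.09). Klrk1 itself was not lower in CD8 T cells, as given above. Of the 14 adaptors and signalling genes 12 were measured in CD8 T cells, of which 1 was higher and 3 were lower, with a median log2 ratio of -0.18. Over all measured genes 9.98% were higher and 9.36% lower, with a median of 0.04. Nothing is read from the small counts of this list or of the lists below. The higher one was Fcer1g, an adaptor of Fc and NK receptors, at 34.9 and 65.7 CPM (1.88, 1.32 to 2.73), and the lower ones were Hcst, Tyrobp and Inpp5d, a lipid phosphatase of inhibitory receptors, at 49.0 and 32.3 CPM (0.659, 0.455 to 0.955). Tyrobp in CD8 T cells stood at 63.2 and 26.8 CPM, but 1 cell held 63 of its 76 WT UMIs and 1 cell held 37 of its 53 KO UMIs. In CD4 T cells 2 of 12 measured genes of this list were higher, Fcer1g (120 and 394 CPM) and Tyrobp, and 1, Hcst, was lower. Of all genes in that gate 14.7% were higher and 11.2% lower, and in Treg cells 8.7% and 10.5%. In Treg cells Tyrobp (116 and 349 CPM) and Fcer1g (124 and 186 UMIs) were higher, and Hcst and Plcg1, a phospholipase of antigen receptor signalling (45.2 and 18.1 CPM), were lower. In NK cells Tyrobp stood at 894 and 3484 CPM. In CD4 T cells and Treg cells the macrophage list was higher in KO together with Tyrobp and Fcer1g, as given above. In CD8 T cells it stood at 39.9 and 110.6 CPM, with 1 cell holding 44 of 48 WT UMIs and 1 cell 196 of 219 KO UMIs, and was higher in KO with Fcer1g while Tyrobp was lower. The part of these transcripts was not tested.

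Of other NK receptor genes 5 of 8 were measured in CD8 T cells, with 0 higher and 1 lower, beside 9.98% and 9.36% of all genes. In CD4 T cells 4 were measured and in Treg cells 1, where 14.7% and 8.7% of all genes were higher. Crtam, an adhesion receptor of activated T and NK cells, was the lower one at 49.0 and 24.8 CPM (0.505, 0.338 to 0.750). Cd160, a receptor of cytotoxic lymphocytes, stood at 64.8 and 85.4 CPM. Fcgr3, an Fc receptor of NK and myeloid cells, was the 1 gene of this list that was higher in KO CD4 T cells (19.0 and 54.5 CPM, 3 WT and 9 KO cells) and in KO Treg cells (19.4 and 63.3 CPM, 2 and 3 cells). Of 19 further receptors of the gene cluster, 2 were measured in CD8 T cells, with 0 higher and 1 lower, beside the same shares of all genes. The lower one was Klra7, an NK receptor gene of the Ly49 group, at 17.5 and 8.08 CPM (0.463, 0.226 to 0.931).

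The ligand gene of the CD94 receptors, H2-T23, was present in all of the larger classes at like levels. It stood at 101 and 88.4 CPM in CD8 T cells, 109 and 105 in dendritic cells, and 129 and 115 in macrophages and monocytes. Of 15 ligand genes 5 were measured in CD8 T cells, with 1 higher and 1 lower, beside 9.98% and 9.36% of all genes. Ulbp1, a ligand of NKG2D, was the higher one at 4.99 and 12.6 CPM (2.53, 1.01 to 7.55) and Clec2i, a ligand of a related lectin receptor, the lower one at 46.6 and 25.8 CPM (0.553, 0.371 to 0.824). In Treg cells Clec2d, which encodes a ligand of an inhibitory lectin receptor, was higher in KO at 123 and 192 CPM (1.56, 1.15 to 2.13). Of 11 transcription factor genes of effector and NK cells, all were measured in CD8 T cells, with 1 higher and 1 lower, beside the same shares of all genes. Those shares were 14.7% and 11.2% in CD4 T cells and 8.7% and 10.5% in Treg cells. The higher one was Prdm1, which encodes the effector factor Blimp-1, at 14.1 and 23.7 CPM (1.68, 0.947 to 3.12), and the lower one was Tcf7. In CD4 T cells Tox, a factor of chronically stimulated T cells, stood at 45.7 and 132 CPM (2.88, 1.86 to 4.63), and Bhlhe40, a factor of cytokine-producing T cells, at 158 and 304 CPM (1.92, 1.51 to 2.47), while Tcf7 and Tbx21, an effector factor (55.2 and 35.5 CPM), were lower. In Treg cells Bhlhe40 was lower at 250.1 and 103 CPM (0.412, 0.299 to 0.562), as was Id2, a factor of effector and innate lymphocytes, at 737 and 315 CPM (0.427, 0.357 to 0.510). Id2 was also lower in KO NK cells, at 2033 and 1109 CPM.

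Profiles over the 7 classes of both libraries (14 points that share libraries and depth) were compared by Pearson's r of log2(CPM + 10) as a description. The gene most like Klrc1 among 5621 was Cd160 (r = 0.92). Klrc2 was most like Klra9 (0.97), Klre1 like Klra7 (0.96) and Gzma (0.95), and Klrb1c like Ncr1 (0.98). The profile of Ncr1 is partly fixed by the gates, which required it of NK cells and excluded it from dendritic cells, macrophages and monocytes. Every member except Klrg1 had its highest level in an NK point, Klrc1, Klrd1 and Klrk1 included, and these points come from 3 WT and 12 KO cells. Klrg1 was followed most closely by Sept7 (0.84) and Ikzf2 (0.80), the latter a factor of Treg cells. For Klrd1 and Klrk1 the closest were Atp8b4 (0.86) and Rpl10 (0.87).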

How the data were processed

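Each group's deposited matrix gives UMI counts, not normalized, for every gene and cell. Per the submitters' processing notes the authors used Cell Ranger 1.3 and mm10, while per the file headers the software version was 3.0.2. Cells with at least 500 UMIs, 300 genes and at most 10% mitochondrial UMIs were kept; no doublet caller was run, cells with both co-receptors were left out of the gates, and MHC class II UMIs were limited to 0.5% in the 4 gates. A T cell had a UMI of Cd3d, Cd3e or Cd3g. CD8 T cells had Cd8a or Cd8b1 without Cd4 and Foxp3, CD4 T cells had Cd4 without Cd8a, Cd8b1 and Foxp3, Treg cells had Foxp3, and NK cells had Ncr1 without T cell genes. A finer division of CD8 T cells into states is not reported here. Counts were summed per class and scaled to CPM, with exact Poisson, conditional binomial and Clopper-Pearson 95% intervals, joined by Newcombe's method for differences of shares. Shares were taken after 1 seeded draw of 2000 UMIs per cell. Coverage of the ratio intervals was tested on simulated independent Poisson counts, the model they assume. That test cannot show coverage where the UMIs of a gene gather in few cells, as some do here. Named genes were members, Tcf7, list genes at least 1.5-fold apart, genes that a member's role needs and, in part, the 3 most similar profiles. List genes needed at least 30 UMIs, with at most 4 per list and class. Gzmb, Prf1, Gzmk, Cxcr6, Pdcd1, Gzma, Il7r and Lyz2 describe cells. The members and lists were chosen with earlier results of these data known, and the promoter motif and the splits of Treg and NK cells after values were seen. GENCODE M21 matched 27722 of the 27998 gene IDs. Python 3.11.15, numpy 2.4.6 and scipy 1.17.1 were used.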

Additional observations from a re-analysis of the deposited data

Results flagged for a closer look

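Klrd1 and Klrk1 were also found outside the 4 lymphocyte gates, in dendritic cells, which the comparisons above do not use. Klrd1 stood at 159 CPM in WT and 110 CPM in KO dendritic cells, a ratio of 0.694 (95% counting interval 0.611 to 0.787). The level was highest in dendritic cells with Cd209a or Sirpa, at 710 and 388 CPM, and 37.8 and 45.8 CPM in those with Xcr1 or Clec9a, markers of type 1 conventional dendritic cells. Klrk1 stood at 202 CPM and 206 CPM, with a UMI in 198 of 263 and 219 of 273 cells, and at 186 to 263 CPM in each subset of either library. Klrc1 had 1 and 2 UMIs in the same cells. Both values lie above what 0 counts allow. Whether doublets or free RNA had a part was not tested.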

How the results depend on the processing

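No paired analysis was possible because each group is 1 library. With all values as log2 KO to WT ratios, the summed members moved from 0.10 to 0.23 in CD8 T cells, from 1.07 to 0.44 in CD4 T cells and from -0.34 to 0.36 in Treg cells when the limit on MHC class II UMIs was dropped. In Treg cells the sum was 0.57 without cycling cells and 0.39 after thinning, and in NK cells it went from 0.04 to 0.80 after thinning and to -0.53 with the wider gate. Klrg1 in Treg cells turned from -0.86 to 0.065 as a mean over cells, 0.71 without cycling cells and 0.39 after thinning, and was -0.36 without the limit on MHC class II UMIs. In CD8 T cells thinning moved Klrd1 to -0.27 and Klre1 to -0.036. Counts of members also moved. At 50 CPM in 1 library, 0 members were lower in CD8 T cells and 1 in NK cells. With no filter 6 were higher in CD4 T cells, 3 higher and 2 lower in Treg cells, and 1 lower in NK cells. The share of CD8 T cells with Klrd1 differed by 11.7 points at 1000 UMIs in 1 draw. The other 46 values of these summaries and 133 of single members stayed within the main counting interval, or for counts within 1.5 times; that interval is wide for rare members. Leaving out cells with macrophage genes, or with Tyrobp, was added after seeing the data. The causes of these shifts were not tested. With 3 WT NK cells and 1 library per group, depth limits all rare members.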
